A study of Mus musculus with 12 samples.

Results

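The 10 genes *Mfn1*, *Mfn2*, *Opa1*, *Dnm1l*, *Fis1*, *Mff*, *Pink1*, *Bnip3*, *Bnip3l* and *Fundc1* encode core proteins of mitochondrial fusion, fission and mitophagy. They were taken by name from tables of 15838 genes measured by RNAseq in mouse corneal endothelium, and 10 of 10 were present. None of these genes passed the test for a difference between *Slc4a11*-/- (KO) and *Slc4a11*+/+ (WT) mice in either sex, and none passed it between males and females. Among 56 genes of the same pathways that were not on this list, *Inf2* fell in KO males and *Bcl2l13* fell in KO females. Both also fell for the mean KO effect over both sexes, where *Fkbp8* and *Trp53inp1* rose. None of the 56 passed the test for a difference of the KO effect between the sexes. In KO males 5 of 7 mitochondrially encoded genes fell. Over all genes 5.47% passed the test in males, 1.42% in females, 9.07% for the mean KO effect and 0.543% for the difference between the sexes. The counts for the 56 genes, 1, 1, 4 and 0 in the same order, were near or below these shares.

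The libraries came from corneal endothelial cells (CEC) with the underlying Descemet membrane of mice at 10 weeks of age, in 4 groups of 3 libraries: KO male, KO female, WT male and WT female. KO mice carry a targeted germline deletion of several exons of *Slc4a11*, a membrane transporter whose loss causes an endothelial dystrophy with corneal edema, on a C57BL/6 background, and KO and WT mice were bred from crosses of heterozygotes. The deletion is present in every tissue, so a change in CEC cannot be told apart from a response to corneal edema. No cell type was purified beyond the dissection of the membrane. The sample records describe pooled membranes and the methods describe membranes taken as pairs, so the p-values measure the spread between libraries, which may not be that between mice.

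Mitochondria fuse and divide continuously. The mitofusins MFN1 and MFN2 join outer membranes and OPA1 joins inner membranes and shapes cristae, while the GTPase DRP1, encoded by *Dnm1l*, is recruited to the outer membrane by adaptors such as MFF and constricts the organelle. Damaged mitochondria are removed by mitophagy, either through ubiquitin signalling started by the kinase PINK1 or through receptors that bind the autophagosome directly, among them BNIP3, BNIP3L (NIX) and FUNDC1. CEC are rich in mitochondria, which fuel the ion pumping that keeps the cornea clear.

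The deposited values are coefficients of a limma fit with voom weights and not values per library. The log2FC is therefore given with its standard error (SE), which carries the spread between the libraries, and the level of a group in CPM, the read count scaled to library size, is an estimate from the fitted coefficients added to the gene's average, with no error of its own. Library depths are unknown here, since no read totals were analysed. Which sex the genotype coefficient refers to is not written in the tables and was read as males. Under the opposite reading the KO effects of males and females below would change places, and the difference between the sexes would change sign. The group levels in CPM would also differ, without changing places. The mean KO effect and the values of females against males would stay as they are. A gene was called at a Benjamini-Hochberg adjusted p under 0.05 over the 15838 genes. At this threshold 866 genes (5.47%) were called between KO and WT males and 225 (1.42%) between KO and WT females. There were 1437 (9.07%) for the mean KO effect over both sexes, 86 (0.543%) for the difference of the KO effect between females and males, and 5 (0.0316%) for females against males.

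*Slc4a11* itself fell in KO, with a log2FC of -1.83 (SE 0.22, adjusted p = 0.000522) in males and -2.89 (SE 0.22, adjusted p = 2.77e-05) in females. All 12 corneal endothelial markers were present, led by *Col8a2* at a mean of 12.79 log2 CPM. Of 7 stromal keratocyte markers tested, 6 were lower for the mean KO effect, with the smallest p for *Aldh3a1* (-0.73, adjusted p = 0.00172), *Col1a2* (-0.65, adjusted p = 0.0188) and *Dcn* (-0.37, adjusted p = 0.0200), and *Aldh3a1* was also lower in each sex. Their summed level was 17803 CPM in WT males, 12627 CPM in KO males, 17993 CPM in WT females and 9965 CPM in KO females. Of 6 melanocyte and iris pigment cell markers tested, *Tyr*, *Dct* and *Oca2* were lower, by a log2FC of -2.29, -2.31 and -2.22, and their summed level was 35.9, 14.2, 46.5 and 6.34 CPM in the same order. The lowest mean level was 342 CPM among the stromal markers (*Kera*) and 0.669 CPM among the pigment markers (*Mlana*). Fewer cells of a type and less RNA per cell cannot be told apart in these libraries. Of the 12 endothelial markers 8 were above 0 for the mean KO effect, with a median log2FC of 0.10, and *Ptgds* was the only 1 called, as lower. The 7 leukocyte markers summed to 66.9 CPM in WT males, 37.5 CPM in KO males, 45.1 CPM in WT females and 74.8 CPM in KO females. The leukocyte markers had a median log2FC of -0.93 in males, where 0 of 7 were above 0, and of 0.40 in females, where 6 of 7 were. For these markers the difference between the sexes was above 0 for 7 of 7, with a median of 1.42, and for 52.6% of all genes. None of the 7 was called for it, with 4 at an unadjusted limma p under 0.05. *Cd74* was lower for the mean KO effect. Of 10 muscle markers only *Myh11* and *Tnnt3* were among the tested genes, and neither was called. The 8 corneal epithelial, 6 lens and 3 nerve markers tested were not called either, at a summed 179, 91.4, 72.6 and 35.9 CPM for the epithelial markers in the same 4 groups. The part of these other cells in the results that follow was not tested.

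No fusion gene passed the test between KO and WT. *Mfn1* (chr3:32529465-32579239, plus strand, GRCm38) was estimated at 89.9 CPM in WT males, 94.3 CPM in KO males, 92.8 CPM in WT females and 107 CPM in KO females. KO was above WT by a log2FC of 0.07 (SE 0.12, adjusted p = 0.755) in males and 0.21 (SE 0.12, adjusted p = 0.405) in females. *Mfn2* (chr4:147873599-147904704, minus strand) was the most abundant of the 3, at 180 CPM in WT males, 174 CPM in KO males, 200.1 CPM in WT females and 188 CPM in KO females. The KO estimate was below WT in both sexes, by a log2FC of -0.05 (SE 0.10) in males and -0.09 (SE 0.10) in females, with adjusted p = 0.809 and 0.715. *Opa1* (chr16:29579334-29654884, plus strand) was the most even of the 3, at 76.1 CPM in WT males, 75.9 CPM in KO males, 74.0 CPM in WT females and 79.3 CPM in KO females. The mean KO effect on *Opa1* was 0.05 (SE 0.06, adjusted p = 0.639), with a 95% interval from -0.09 to 0.18, which as a ratio runs from 0.941 to 1.14. Its implied SD between libraries of a group, 0.11 on the log2 scale, was also the smallest of the 10 genes.

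Among the fission genes, *Dnm1l* and *Fis1* had the smallest p-values of all 10 genes, and neither passed the adjustment. *Dnm1l* (chr16:16312230-16358959, minus strand) was estimated at 51.3 CPM in WT males, 55.5 CPM in KO males, 52.6 CPM in WT females and 62.0 CPM in KO females. KO was above WT by 0.11 (SE 0.10) in males and 0.24 (SE 0.10) in females on the log2 scale, and the mean of the sexes was 0.17 (SE 0.07, unadjusted p = 0.0245, adjusted p = 0.121 from limma). *Fis1* (chr5:136953275-136966234, plus strand), an outer membrane protein linked to fission, stood at 49.2 CPM in WT males, 50.2 CPM in KO males, 46.7 CPM in WT females and 57.6 CPM in KO females. The difference was 0.03 (SE 0.13, adjusted p = 0.920) in males and 0.30 (SE 0.13, unadjusted p = 0.0368, adjusted p = 0.274 from limma) in females. The estimate in KO females was thus the highest of the 4 groups for both genes, as it was for *Mfn1*, *Opa1*, *Bnip3*, *Bnip3l* and *Fundc1*. The difference between the sexes was 0.12 (adjusted p = 0.889) for *Dnm1l* and 0.27 (adjusted p = 0.712) for *Fis1*, so the KO effect was not shown to differ between males and females. *Mff* (chr1:82724890-82752394, plus strand) had the narrowest range of estimates, from 46.8 CPM in WT males to 49.2 CPM in KO males, and its log2FC was 0.07 (SE 0.12) in males and -0.01 (SE 0.12) in females.

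The mitophagy genes varied more between libraries, with an implied SD within a group of 0.16 to 0.29 on the log2 scale, against 0.11 to 0.16 for the fusion and fission genes. *Pink1* (chr4:138313409-138326307, minus strand) was estimated at 176 CPM in WT males, 202 CPM in KO males, 196 CPM in WT females and 186 CPM in KO females. Its log2FC was 0.19 (SE 0.13, adjusted p = 0.408) in males and -0.07 (SE 0.13, adjusted p = 0.821) in females. *Bnip3l* (chr14:66985239-67008877, minus strand) stood at 121, 126, 116 and 140.0 CPM in WT males, KO males, WT females and KO females, and KO exceeded WT by 0.06 (SE 0.18) in males and 0.27 (SE 0.18) in females, with adjusted p = 0.862 and 0.471. *Fundc1*, on chromosome X (chrX:17556564-17572325, minus strand), stood at 32.8, 39.3, 42.2 and 43.2 CPM in the same order, and KO exceeded WT by 0.26 (SE 0.19, adjusted p = 0.432) in males and 0.04 (SE 0.18, adjusted p = 0.941) in females. None of these 3 genes passed the test in either sex.

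*Bnip3* (chr7:138890836-138909519, minus strand) had the log2FC of the largest size among the 10 genes in males and between the sexes, and also the largest error. It was estimated at 39.1 CPM in WT males, 31.4 CPM in KO males, 42.5 CPM in WT females and 46.0 CPM in KO females. The KO male estimate was the lowest of the 4 groups. The log2FC was -0.32 (SE 0.24, adjusted p = 0.467) in males and 0.12 (SE 0.24, adjusted p = 0.842) in females, and the difference between the sexes, 0.43 (SE 0.34, adjusted p = 0.780), had a 95% interval from -0.30 to 1.16. The implied SD between libraries of a group was 0.29 on the log2 scale, against 0.11 to 0.23 for the other 9 genes.

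*Bnip3* is also a known target of hypoxia-inducible factor 1 (HIF-1), whose binding sites include the letters ACGTG. Only these letters were searched for and marked, and other forms of the site were not. In the 250 bases before its RefSeq start, these letters occurred once on each strand, overlapping in the palindrome shown in capitals. The window of *Bnip3*, chr7:138909507-138909756 on the minus strand in GRCm38.p6, is shown 5′ to 3′ because the *Bnip3* log2FC in males was the largest in size.

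Bnip3: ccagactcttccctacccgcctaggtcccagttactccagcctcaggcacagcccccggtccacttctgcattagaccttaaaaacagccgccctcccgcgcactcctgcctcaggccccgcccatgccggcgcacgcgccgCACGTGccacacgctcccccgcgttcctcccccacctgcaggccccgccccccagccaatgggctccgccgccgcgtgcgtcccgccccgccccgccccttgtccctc

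The letters, on either strand, were present in 16.57% of the 32851 windows of this length in the RefSeq table, and in 2 of the 14 windows (14.29%) of the 9 genes of the list that had any, the window of *Bnip3* and 1 of the 3 windows of *Mfn2*. A match of 5 letters does not show that the factor binds there.

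**Figure D1:**
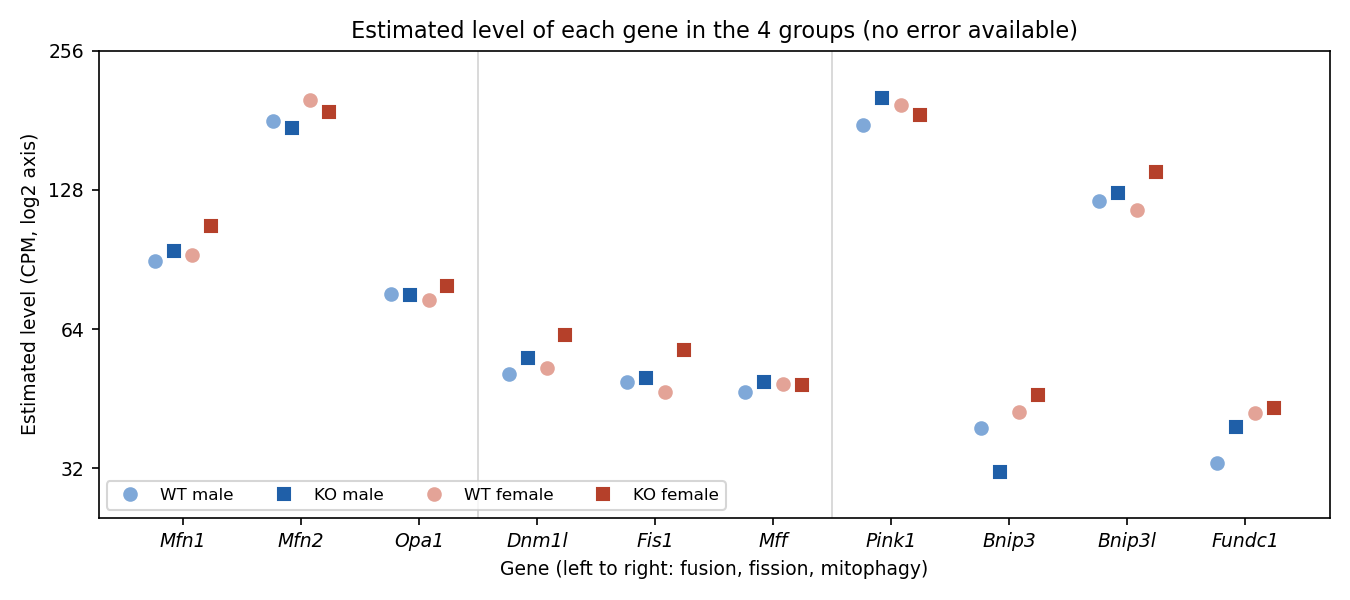
Estimated level in CPM (log2 axis) of each of the 10 genes in WT males, KO males, WT females and KO females, rebuilt from the fitted coefficients with no error. The highest estimate exceeds the lowest by 1.05 times for *Mff* and by 1.46 times for *Bnip3*, the narrowest and widest of the 10 genes.

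Counted together, 0 of the 10 genes were called in males, in females, for the mean KO effect, for the difference between the sexes or for females against males. In these 50 limma tests 3 had an unadjusted p under 0.05, which were *Dnm1l* in females and over both sexes and *Fis1* in females, and the smallest adjusted p was 0.121. Of all genes, 21.9% had an unadjusted p under 0.05 in males, 15.9% in females, 27.9% for the mean KO effect, 10.2% for the difference between the sexes and 3.74% for females against males. At the share of all genes called, a list of 10 genes would hold fewer than 1 called gene in each comparison, so a count of 0 does not set these genes apart. The intervals say more about how large a difference could have been missed. For the mean KO effect the 95% interval of 10 of 10 genes lay within a 1.5-fold difference in either direction, compared with 55.9% of all genes and 85.2% of the 8801 genes with a mean of at least 10 CPM. In males 8 of 10 intervals lay within 1.5-fold, and those that did not were *Bnip3*, whose interval as a ratio ran from 0.559 to 1.15, and *Fundc1*, from 0.907 to 1.58. In females 8 of 10 lay within it, and *Bnip3* ran from 0.764 to 1.54 and *Bnip3l* from 0.929 to 1.57. Over the 50 tests 49 intervals lay within 2-fold. The exception was the difference between the sexes for *Bnip3*, whose interval reached a ratio of 2.23.

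**Figure D2:**
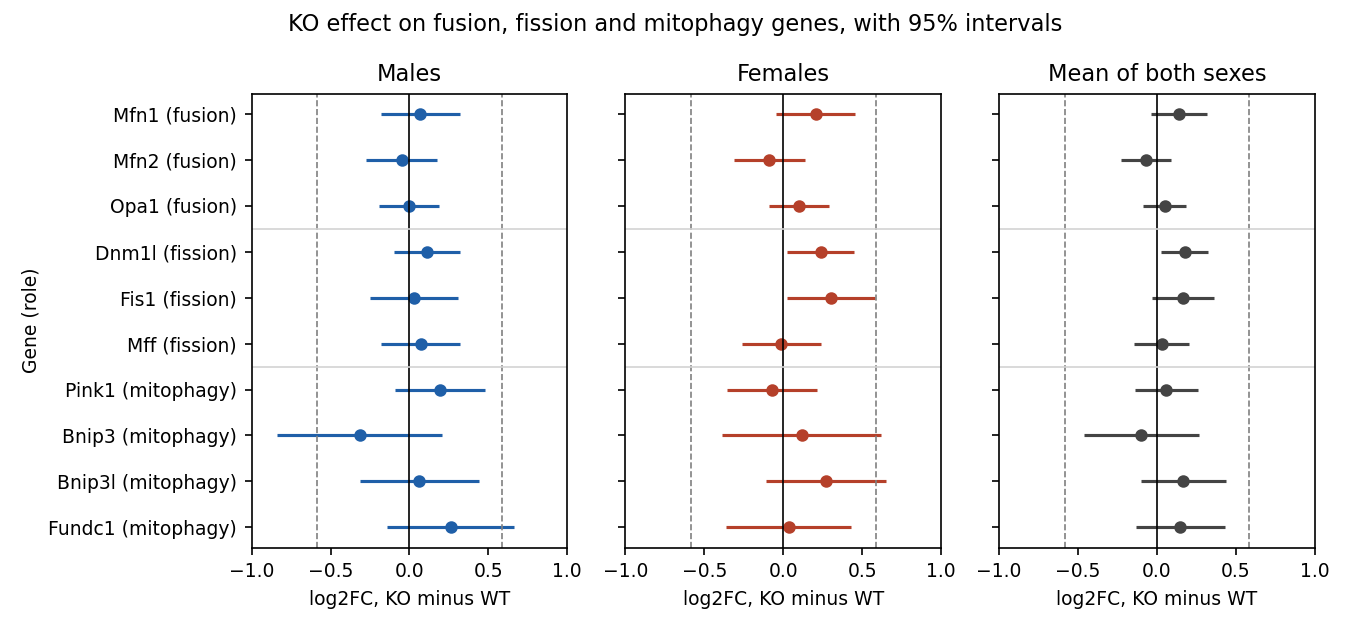
The log2FC of KO minus WT (x axis) for each of the 10 genes in males, in females and as the mean of both sexes, with points for the estimate, bars for its 95% interval and dashed lines at a 1.5-fold difference. For the mean of both sexes all 10 intervals lie between the dashed lines, and only that of *Dnm1l*, from 0.03 to 0.32, does not include 0, before adjustment for the 15838 genes.

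The median log2FC of the 10 genes was 0.07 in males and 0.11 in females, and it was 0.10 for the mean KO effect. Over all genes it was -0.02, 0.01 and -0.01, but over the 8801 genes with at least 10 CPM, among which all 10 genes stand, it was 0.06, 0.07 and 0.07. For the mean KO effect 8 of 10 genes were above 0, compared with 48.1% of all genes and 63.1% of those with at least 10 CPM. By role, the median of the mean KO effect was 0.05 for the 3 fusion genes, 0.16 for the 3 fission genes and 0.10 for the 4 mitophagy genes. For females against males all 10 estimates were above 0, from 0.01 for *Opa1* to 0.33 for *Bnip3*, with a smallest adjusted p of 0.882. Of all genes 49.1% were above 0, and of those with at least 10 CPM 61.3% were. This comparison comes from another fit, which appears to leave genotype out, so its SE may include the spread between genotypes.

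The 10 genes ranked in the upper part of the tested genes in these libraries, which also hold stromal RNA. Their mean level ran from 39.2 CPM for *Fundc1* to 190 CPM for *Pink1*, from percentile 72.6 to percentile 95.4 of the tested genes. Per kb of annotated exon, *Pink1* was the highest at 6.15 log2 CPM per kb (71.0 CPM per kb), above *Mfn2* by 0.99 (SE 0.06). *Mfn2* at 5.16, *Bnip3l* at 5.02 and *Fis1* at 4.89 log2 CPM per kb followed, and each differed from the next by no more than 0.13, which was within the 95% interval. *Bnip3*, *Fundc1* and *Mfn1* formed the next group at 4.12, 4.06 and 3.97 log2 CPM per kb, lower than *Fis1* by 0.77 (SE 0.10) at its upper end, and neighbours among them were also within the interval. *Dnm1l* at 3.41, *Opa1* at 3.28 and *Mff* at 2.31 log2 CPM per kb stood lowest, each beyond the interval from the gene above it. These intervals treat the genes as independent, although they share libraries. The order depends on the annotated length, since *Mff* has 9757 bases of exon over all its 16 annotated transcripts and *Fis1* has 1714 bases.

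**Figure D3:**
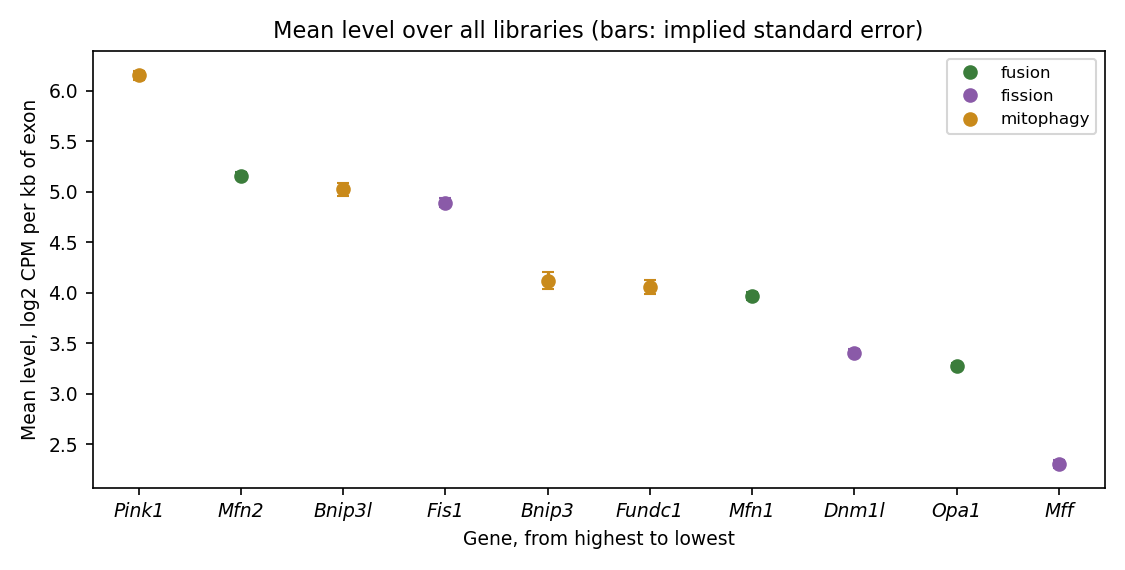
Mean level over all 12 libraries in log2 CPM per kb of annotated exon (y axis) for the 10 genes from the highest to the lowest, with colours for role and bars for the implied standard error. *Pink1* stands 0.99 above the next gene and *Mff* stands 0.97 below the gene before it.

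The exons of *Bnip3*, *Dnm1l* and *Mff* overlap genes on the opposite strand (Gm45507, Gm49521 and C430014B12Rik), and those of *Pink1* hold 2 annotated microRNA genes. The library kit marks strand, but whether the counting used it is not given in the sources used here, so reads of these pairs may not have been told apart. The other 6 genes share no exonic base with another annotated gene.

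The wider machinery was described through lists of known genes. Among 15 other genes of fusion and inner membrane shape, 0 were called in males, in females or for the mean KO effect, while 6, 2 and 8 had an unadjusted limma p under 0.05, against 21.9%, 15.9% and 27.9% of all genes. These include the proteases that process OPA1 and the subunits of the MICOS complex that holds cristae junctions. The log2FC of the mean KO effect was above 0 for 15 of 15 of them, with a median of 0.22, and over the 56 other pathway genes together it was above 0 for 87.5%, with a median of 0.17. Over all genes with at least 10 CPM these values were 63.1% and 0.07. The 11 markers of mitochondrial mass, such as outer membrane channels and matrix chaperones, were also all above 0 for the mean KO effect, with a median of 0.21. Only 1 of the 11 was called, a share like the 9.07% of all genes. This was *Tomm22*, a receptor of the outer membrane protein import complex, which rose (0.43, SE 0.11, adjusted p = 0.0294). Of 7 adaptors that move mitochondria along microtubules none was called, and 2 had an unadjusted limma p under 0.05 for the mean KO effect, a share like that of all genes.

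Of 13 other fission genes, only *Inf2* was called. *Inf2*, a formin that assembles actin at sites where the endoplasmic reticulum constricts mitochondria, was estimated at 91.1 CPM in WT males, 60.9 CPM in KO males, 79.1 CPM in WT females and 63.5 CPM in KO females. Both KO estimates lay below both WT estimates. It fell by 0.58 (SE 0.12, adjusted p = 0.0138) on the log2 scale in males and by 0.45 (SE 0.08, adjusted p = 0.00694) over both sexes, and the value in females was -0.32 (SE 0.12, adjusted p = 0.210). The calls for *Inf2* in males and for *Bcl2l13* in females were lost under a Benjamini-Yekutieli adjustment, at adjusted p = 0.141 and 0.0673. Lower calls made up 3.17% of all genes in males and 5.2% for the mean KO effect.

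Of 21 other mitophagy genes, 3 were called for the mean KO effect. For this effect 9.07% of all genes were called, and 1008 of the 8801 genes with at least 10 CPM. In females 1 of the 21 was called, against 1.42% of all genes, and in males 0. *Bcl2l13*, an outer membrane mitophagy receptor, was estimated at 365, 324, 427 and 257 CPM in WT males, KO males, WT females and KO females. It fell by 0.73 (SE 0.12, adjusted p = 0.00657) in females and by 0.45 (SE 0.08, adjusted p = 0.00636) over both sexes, with -0.17 (SE 0.12, adjusted p = 0.413) in males and an adjusted p of 0.181 for the difference between the sexes. Exons of *Bcl2l13* overlap *Bid* on the opposite strand. The receptor *Fkbp8* rose by 0.27 (SE 0.07, adjusted p = 0.0324) and *Trp53inp1*, an autophagy protein induced by p53, rose by 0.42 (SE 0.12, adjusted p = 0.0496) for the mean KO effect, and neither was called in 1 sex alone. Exons of *Fkbp8* overlap the span of the gene *Kxd1* on the opposite strand.

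**Figure D4:**
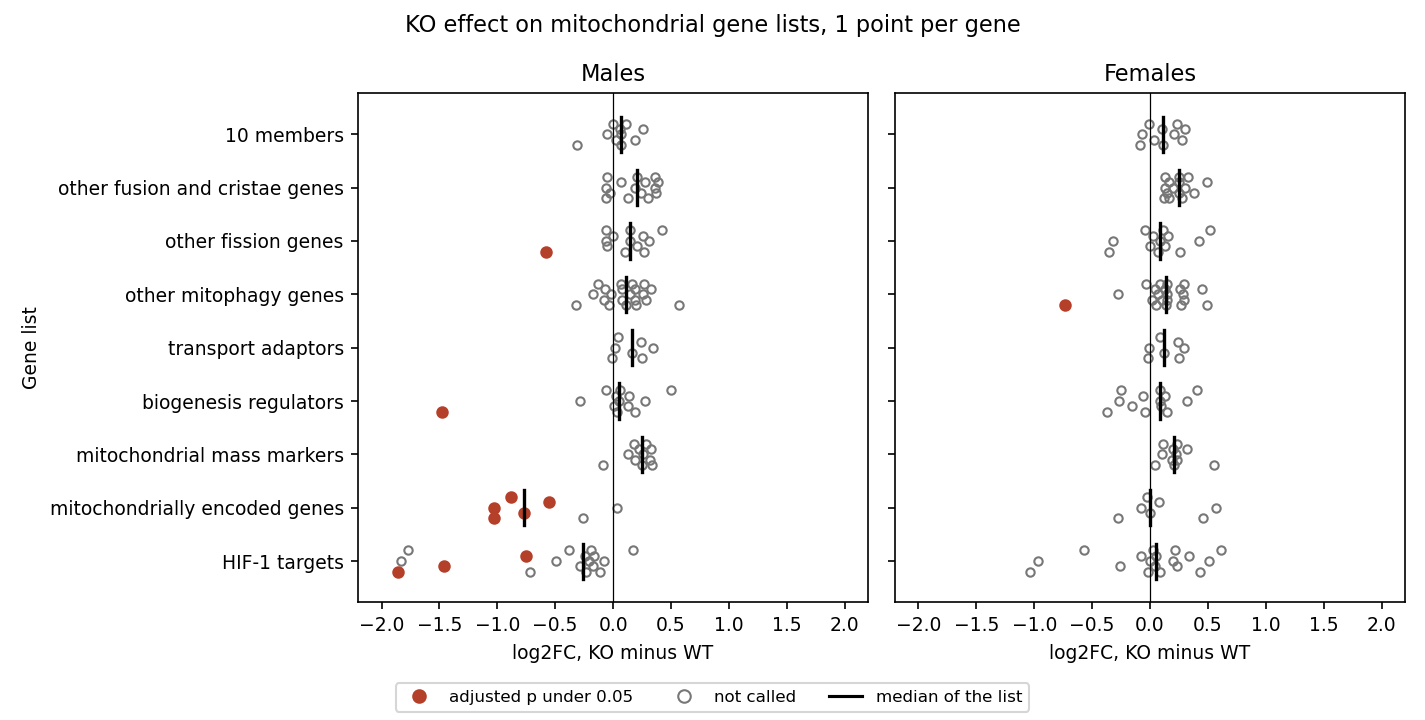
The log2FC of KO minus WT (x axis) in males and females, with 1 point per gene, for the 10 genes and 8 further lists of mitochondrial genes or HIF-1 targets. Filled points have an adjusted p under 0.05 and black lines are medians. None of the 10 genes is filled, and in males 5 of the 7 mitochondrially encoded genes are, between -1.03 and -0.55.

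*Ppargc1a* and 5 mitochondrially encoded genes fell in KO males by more than any of the 10 genes moved. *Ppargc1a*, the coactivator PGC-1α that drives mitochondrial biogenesis, was estimated at 6.88 CPM in WT males, 2.47 CPM in KO males, 5.66 CPM in WT females and 4.37 CPM in KO females. It fell by 1.48 (SE 0.28, adjusted p = 0.00961) in males and was the only 1 of 13 biogenesis regulators called there, and in females the value was -0.37 (SE 0.24, adjusted p = 0.470). *Ppargc1a* was also called lower for the mean KO effect, at -0.92 (SE 0.18, adjusted p = 0.00994). For the difference between the sexes 0 of the 13 were called, with a smallest adjusted p of 0.193. Of the 13 proteins encoded by the mitochondrial genome, 7 were among the tested genes. In males *mt-Nd4*, *mt-Nd5*, *mt-Nd6*, *mt-Cytb* and *mt-Co1* fell, with a list median of -0.77, while *mt-Nd1* (-0.26, adjusted p = 0.231) and *mt-Nd2* (0.03, adjusted p = 0.913) were not called. *mt-Co1*, a catalytic subunit of cytochrome c oxidase, was estimated at 2614 CPM in WT males, 1285 CPM in KO males, 2327 CPM in WT females and 1926 CPM in KO females. It fell by 1.02 (SE 0.14, adjusted p = 0.00148) in males, and the value in females was -0.27 (adjusted p = 0.375). In females 0 of the 7 were called and the list median was 0.00, while *mt-Nd1* (0.46, adjusted p = 0.0855) and *mt-Nd2* (0.57, adjusted p = 0.0596) stood above WT at an unadjusted limma p under 0.05. The difference between the sexes was above 0 for 7 of 7, with a median of 0.72, and for 52.6% of all genes. These genes were measured in the same 12 libraries, so their signs are not independent. The difference was called for *mt-Nd5* (0.96, SE 0.18, adjusted p = 0.0345) and *mt-Nd6* (1.01, SE 0.20, adjusted p = 0.0443), which overlap on opposite strands. The leukocyte markers also had a difference between the sexes above 0 in 7 of 7, with a median of 1.42, and their part in this result was not tested. The summed level of the 7 genes was 12350 CPM in WT males, 7789 CPM in KO males, 10919 CPM in WT females and 11513 CPM in KO females.

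Because *Bnip3* is a HIF-1 target, 18 other HIF-1 targets were also examined, and 3 fell in males, where 3.17% of all genes were called lower. For the mean KO effect 2 of the 18 were called, both lower, against 5.2% of all genes called lower. In males *Vegfa*, the angiogenic growth factor, fell by 1.46 (SE 0.33, adjusted p = 0.0239), *Ndrg1*, a gene induced by hypoxia and stress, fell by 1.86 (SE 0.43, adjusted p = 0.0244), and *Mxi1*, a repressor that antagonises MYC, fell by 0.75 (SE 0.16, adjusted p = 0.0183). For each of these 3 genes the WT male estimate was the highest of the 4 groups. *Vegfa* was estimated at 112 CPM in WT males, 40.9 CPM in KO males, 58.3 CPM in WT females and 39.1 CPM in KO females. The median of the list was -0.26 in males, where 17 of 18 were below 0, and 0.05 in females. Of all 15838 genes 8356 were below 0 in males. In females 0 were called and 4 had an unadjusted limma p under 0.05, against 15.9% of all genes. The difference between the sexes was above 0 for 18 of 18, with a median of 0.53 compared with 0.02 over all genes. Of all genes 52.6% were above 0, and the targets share the same 12 libraries, so their signs are not independent. For this difference 0 were called, with 6 at an unadjusted limma p under 0.05, against 10.2% of all genes. The value of *Bnip3*, 0.43 (SE 0.34), was also above 0 and was not called, and 6 of the 10 genes were above 0 here. The summed stromal and pigment markers were lower in KO in both sexes, and the leukocyte markers, like these targets, had a sex difference above 0 in every member (7 of 7, median 1.42). The epithelial and lens markers, none of them called, had their highest sums in WT males. In WT males, KO males, WT females and KO females these were 179, 91.4, 72.6 and 35.9 CPM for the epithelial markers. For the lens markers they were 53.8, 16.5, 15.0 and 5.45 CPM. The part of these cells in the differences was not tested.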

How the data were processed

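Total RNA of corneal endothelium with Descemet membrane was sequenced in 12 libraries, 3 in each of 4 groups. The authors made paired-end reads from a stranded low-input kit, used HISAT2 for alignment to GRCm38, scaled the counts by TMM to CPM, and ran limma-voom in a factorial design of genotype and sex. The gene counter and its strand setting are not given in the sources used here. They deposited 3 tables of 15838 genes, for genotype, sex and the interaction, with log2 values for the fold change and average level, scores for t and the log odds, and a raw and an adjusted p-value for each gene. These columns are the authors' own comparisons and were used because no values per library were analysed here. The depth per library is unknown, and precision comes only from the SE.

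The SE was taken as log2FC divided by t. The coefficient of genotype was taken to be the KO effect of males, since the interaction to genotype ratio of SE had a median of 1.42 and the square root of 2 is 1.41, whereas a mean over both sexes would give 2. This ratio does not tell which sex is the reference, and males were taken from the directions that the study shows for its sexually dimorphic genes. The interaction was read as females minus males, and the sex table, another fit with 14.6 degrees of freedom against 13.8, as female minus male, because 4 of 4 Y-linked genes were lower in females. For *Slc4a11* the SE was 0.651 in the sex fit and 0.155 for the mean KO effect. The sex fit therefore appears to leave genotype out, so its p-values may include the spread between genotypes. KO minus WT in females was the sum of genotype and interaction, and the mean KO effect was genotype plus the interaction divided by 2. Their p-values came from the moderated t, and were adjusted over 15838 genes with the Benjamini-Hochberg method. The implied SD between libraries and the SE of mean levels follow from the SE of the mean KO effect. Group levels combine both fits. The derivations of KO minus WT in females and of the mean KO effect were tested on simulated data against a direct fit in limma 3.58.1. That simulation used no voom weights. The group levels, the implied SD and the SE of mean levels were not tested in this way. Positions, exon lengths and overlaps came from GENCODE M21 for GRCm38, and promoter windows from a RefSeq table.

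The 10 genes and the other lists were chosen with earlier results of these data known, and 1 gene of the lists is not reported here. All 10 genes are named, and of the other lists every gene with an adjusted p under 0.05, up to 3 with the smallest p per list and comparison, and the markers that the check of the tissue needed. Alternatives covered the adjustment, CPM minimum, degrees of freedom, centring, a fold threshold and the reading of the genotype coefficient. Python 3.11.15, pandas 2.3.3 and scipy 1.17.1 were used.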

Additional observations from a re-analysis of the deposited data

Results flagged for a closer look

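The KO effect differed between the sexes for *mt-Nd5* and *mt-Nd6*, 2 subunits of respiratory complex I encoded by the mitochondrial genome, by the interaction term of the limma fit. The difference of females minus males was 0.96 (SE 0.18, adjusted p = 0.0345) for *mt-Nd5*, with -0.88 in males and 0.08 in females, and 1.01 (SE 0.20, adjusted p = 0.0443) for *mt-Nd6*, with -1.03 in males and -0.02 in females. Neither passed under a Benjamini-Yekutieli or Holm adjustment or with 8 residual degrees of freedom. Their 3′ ends overlap on opposite strands. None of the 10 fusion, fission and mitophagy genes met this criterion.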

How the results depend on the processing

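For the 10 genes the count called was 0 in each of the 5 comparisons under each alternative run, and 414 values per gene and setting kept their direction while 6 did not. These 6 were small: *Opa1* in males became 0.020 with centring on the median gene, and, with the genotype coefficient read as the mean of both sexes, *Fis1* in males became -0.11, *Bnip3l* in males -0.043, *Mff* in females 0.029, *Pink1* in females 0.060 and *Bnip3* in females -0.10. Leaving out each library was not run, because the tables hold no values per library. No paired analysis was possible because the samples carry no numbers shared between groups and no values per library were at hand.

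Counts of called genes moved more. With the Benjamini-Yekutieli adjustment all genes called numbered 123 in males, 47 in females, 0 for the difference between the sexes, 209 for the mean KO effect and 0 for sex, and with Holm 46, 26, 2 and 72 in the first 4. With 1 adjustment over the 5 comparisons they were 567 in males, 182 for the difference between the sexes, 746 for the mean KO effect and 10 for sex. With 8 residual degrees of freedom they were 140 in males, 32 in females, 0 for the difference between the sexes, 324 for the mean KO effect and 0 for sex, and with |log2FC| > 1 they were 302 in males, 93 in females and 356 for the mean KO effect. With at least 10 CPM the count for sex was 0. Read as a mean of both sexes, the genotype coefficient gave 1631 in males and 38 in females.

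Of the 56 other pathway genes, 1 was called in males, 1 in females and 4 for the mean KO effect, where 5.47%, 1.42% and 9.07% of all genes were called. These counts became 0, 0 and 0 with Benjamini-Yekutieli, Holm or |log2FC| > 1, and 0, 0 and 2 with 8 degrees of freedom. With 1 adjustment they were 2 in females and 2 for the mean KO effect, with at least 1 CPM 2 in females, with at least 10 CPM 2 in females, and with the other reading 6 in males and 0 in females. Of the 7 mitochondrially encoded genes, 5 were called in males, 2 for the difference between the sexes and 4 for the mean KO effect. These became 3, 0 and 1 with Benjamini-Yekutieli, 0, 0 and 0 with Holm, 3, 0 and 2 with 8 degrees of freedom and 2, 1 and 0 with |log2FC| > 1. In females 1 was called, up from 0, with 1 adjustment over the 5 comparisons and with at least 10 CPM. Of the values of single genes outside the list of 10, 122 kept their call and 85 lost it with the same direction.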
